A study of Mus musculus with 3 samples.

Results

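The 46 genes described here act in the DNA damage response or in DNA repair. The rule picks them by gene name and uses no measured value, although the list was drawn up with earlier results of these data known, and all 46 of 46 were found once each among the 55573 genes of the table. The study measured the transcriptome of NIH3T3, an established line of mouse embryonic fibroblasts, with UMI-RNAseq, in which random tags let copies of the same molecule be removed. There were 3 libraries of total RNA from untreated cells grown in DMEM with fetal bovine serum, and they share 1 condition, so that no treatment, genotype or time could be compared. Nothing in the labels ties the libraries to separate cultures or dishes, so every spread and p-value below measures only the difference between these libraries, which may be technical.

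Cells mend DNA by several routes that differ in the lesion they start from. Damage signalling proteins find breaks or stalled forks and activate kinases that hold the cell cycle. Breaks through both strands are closed by end joining or copied from the sister chromatid by homologous recombination, and crosslinks are opened by the Fanconi anaemia pathway. Damaged bases and nicks are handled by base excision repair, replication errors by mismatch repair, and bulky lesions such as those from ultraviolet light by nucleotide excision repair. A few lesions are reversed directly by a single enzyme.

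The abundance unit was FPKM, the fragments of a gene scaled to its length in kilobases and to the depth of the library. FPKM values are divided by length and can therefore be compared between genes, although the length used matters, as described below. The libraries held 13959723 to 14423209 fragments. Between 12919 and 12951 genes per library reached 1 FPKM. The label of the cells was checked with markers. All 9 fibroblast markers found in the table reached 1 FPKM, from 5.88 FPKM for Thbs1 to 4377 FPKM for Fn1. The extraction text of the labels mentions retinas, and 0 of 10 retinal markers reached 1 FPKM, with a summed level of 0.943 to 1.61 FPKM per library and 2 of them at 0 in every library. Likewise 0 of 8 lymphoid and 0 of 4 epithelial markers reached it. These are bulk libraries, so fewer cells with a transcript and less transcript per cell cannot be told apart.

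All 46 repair genes had a mean of at least 1 FPKM, against 23.2% of all genes in the table and 49.3% of protein-coding genes. With FPKM as deposited, their median was close to that of all genes with at least 1 FPKM and below that of protein-coding ones. The median over the 46 genes was 16.8 FPKM, and the medians of the single libraries were 16.2, 16.8 and 17.2 FPKM (SD 0.516, n = 3). The median over all genes with at least 1 FPKM was 17.5 FPKM, and 22 of the 46 lay above it. Against protein-coding genes of at least 1 FPKM, whose median was 21.97 FPKM, 14 lay above. Of the 46 genes, 5 were below 5 FPKM, 31 between 5 and 25 FPKM, 7 between 25 and 50 FPKM, 0 between 50 and 100 FPKM, and 3 above 100 FPKM. The 3 above 100 FPKM were Ddb1, Ercc1 and Parp1. Ddb1 alone made up 44.1% of the summed FPKM of the 46 genes and 36.6% of their fragments, and the highest level was 320 times the lowest, that of Mgmt.

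**Figure D1:**
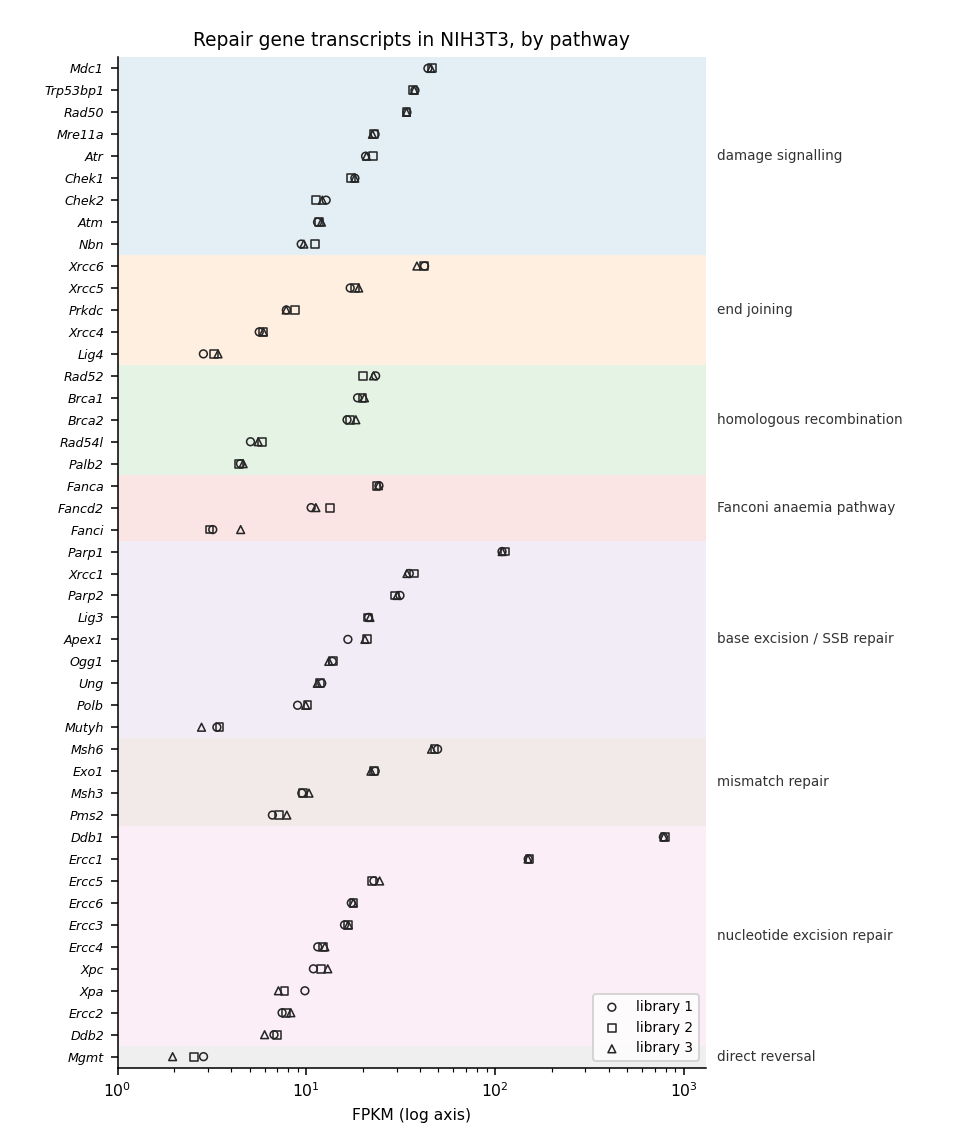
FPKM of each of the 46 repair genes in each library (x axis, log scale), with genes sorted by mean within each pathway (y axis, shaded bands) and a marker shape for each of the 3 libraries. The markers of a gene nearly coincide for most genes, Ddb1 stands at 783.8 FPKM apart from all others, and Mgmt is the lowest at 2.45 FPKM.

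Sequences around RefSeq start sites of the genes were read to see which common promoter words they share. These starts need not be the outermost annotated ones, and the stretches shown for Atm, Fanci, Parp2 and Xrcc6 lie inside the span that GENCODE gives the gene. RefSeq promoters (build GRCm38.p6, 250 bases before to 50 bases after a start) were matched by symbol for 37 of the 46 genes. No promoter was matched for Rad50, Exo1, Nbn, Ercc3, Fancd2, Xpc, Prkdc, Ddb2 and Polb. The words of 4 factor families were searched on both strands, and no word contains another. The E2F words TTTCCCGC and TTTGGCGC, which are bound by the factors that time S-phase genes, occurred in 6 of 37 promoters (16.2%), against 1.80% of the promoters of all 27025 genes with an entry and 3.63% of the 9043 with at least 1 FPKM. The NRF1 word GCATGCGC occurred in 7 (18.9%), against 3.05% and 6.31%. CCAAT, the box bound by NF-Y, occurred in 20 (54.1%), against 41.1% and 43.98%. The ETS word CCGGAAG occurred in 8 (21.6%), against 9.93% and 21.3%. These shares are descriptions of letters, and binding was not measured.

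The 6 promoters with an E2F word belonged to genes of 4 pathways, and the stretch around each word is shown because the word sits in a different place in each. Each stretch is 30 bases long, written 5′ to 3′ in the direction of the gene, and the capitals mark the word or its reverse complement.
Chek2 (chr5:110839820-110839849, plus strand): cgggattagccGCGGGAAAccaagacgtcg
Mdc1 (chr17:35841471-35841500, plus strand): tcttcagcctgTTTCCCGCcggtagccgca
Xrcc6 (chr15:82016312-82016341, plus strand): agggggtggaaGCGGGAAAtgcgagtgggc
Brca2 (chr5:150522442-150522471, plus strand): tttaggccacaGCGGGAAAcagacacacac
Msh3 (chr13:92355187-92355216, minus strand): ttgccgtcaagTTTGGCGCgaaatcgcagc
Msh6 (chr17:87975054-87975083, plus strand): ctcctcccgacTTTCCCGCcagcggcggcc
Msh3 was the only one of the 6 with the second E2F word. The word began 16 bases before the start in Mdc1 and 202 bases before it in Msh3, whereas in Msh6 it lay after the start. The transcripts of these genes ranged from 9.79 FPKM for Msh3 to 47.7 FPKM for Msh6.

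The 7 promoters with the NRF1 word belonged to genes of 5 pathways, with 0 from homologous recombination and 0 from mismatch repair. In Lig4 and Ercc6 the word overlaps its own reverse complement, so that it reads on both strands. The stretches are written as above.
Atm (chr9:53536704-53536733, minus strand): gtcgtgcggcgGCGCATGCcgacttcttcc
Xrcc5 (chr1:72307406-72307435, plus strand): gagagaattctGCGCATGCtcagagcccat
Lig4 (chr8:9977714-9977743, minus strand): cacccctatgcGCATGCGCaggacactggg
Fanci (chr7:79392142-79392171, plus strand): cataccataacGCGCATGCtactctgaggt
Parp2 (chr14:50807853-50807882, plus strand): gcgcgtaatttGCATGCGCtctaccccagg
Xpa (chr4:46196309-46196338, minus strand): actcctcgactGCGCATGCgtagctcttct
Ercc6 (chr14:32513510-32513539, plus strand): aggcctagggcGCATGCGCtaaggtttgtc
None of the 7 held an E2F word. Their transcripts ranged from 3.16 FPKM for Lig4 to 30.3 FPKM for Parp2. Over all 37 promoters the median GC content was 59.7% with a median of 22 CpG, close to the 61.3% and 21 CpG of genes with at least 1 FPKM and above the 52.7% and 7 CpG of all genes.

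Damage signalling was the pathway with the highest median, 21.3 FPKM over 9 genes, and no gene of it had a mean below 10 FPKM. With the longest annotated isoform as length, base excision repair had the highest median instead, 10.6 FPKM against 8.204 FPKM. Among the apical kinases, Atm, which responds to breaks, had 11.5, 11.6 and 12.01 FPKM in libraries 1, 2 and 3. Atr, which responds to single-stranded DNA at stalled forks, had 20.6, 22.4 and 20.8 FPKM. The lowest Atr value was above the highest Atm value. Of the effector kinases that they activate, Chek1, the main target of Atr, had 18.1, 17.2 and 18.0 FPKM. Chek2, the main target of Atm, had 12.7, 11.3 and 12.1 FPKM. Both genes of the Atr branch were thus above their counterparts of the Atm branch in every library.

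The break sensor made of Mre11a, Rad50 and Nbn had unequal transcripts. Rad50, a coiled-coil ATPase that tethers the ends, had 34.1, 33.8 and 33.9 FPKM, and its coefficient of variation of 0.327% was the smallest of the 46 genes. Mre11a, the nuclease, had 23.1, 22.7 and 22.4 FPKM. Nbn, which recruits Atm, had 9.38, 11.1 and 9.69 FPKM. The values of the 3 subunits did not overlap with the deposited length. With the longest isoform Nbn, at 8.52 FPKM, was above Mre11a, at 7.32 FPKM. The adaptors that collect around a break on chromatin were higher than the kinases with the deposited length, though with the longest isoform Trp53bp1, at 8.204 FPKM, was not above Atr, at 8.39 FPKM. Trp53bp1, which shields ends from resection, had 37.6, 36.8 and 37.2 FPKM, and Mdc1, which binds phosphorylated histone H2AX, had 43.99, 46.4 and 45.6 FPKM.

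In end joining, the values spread 12.9-fold between the highest and the lowest of 5 genes, with a median of 8.11 FPKM. The Ku ring that slides onto the ends is made of the products of Xrcc5 and Xrcc6. Xrcc6 had 42.2, 42.1 and 38.5 FPKM, and Xrcc5 had 17.1, 18.2 and 18.9 FPKM. Their difference depended on the length, as described below. Prkdc, the kinase that binds Ku, had 7.83, 8.68 and 7.81 FPKM on a length of 7855 bases, the longest used for any of the 46 genes. The sealing step had the lowest transcripts of the pathway. Xrcc4, the scaffold of the ligase, had 5.62, 5.86 and 5.91 FPKM, and the ligase Lig4 had 2.85, 3.24 and 3.40 FPKM.

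The 5 genes of homologous recombination had a median of 17.2 FPKM. Brca1, which promotes resection of the ends, had 18.7, 19.8 and 20.3 FPKM. Brca2, which loads the recombinase, had 16.4, 17.04 and 18.3 FPKM. Both had their lowest value in library 1 and their highest in library 3, and within every library Brca1 was above Brca2, by a small margin. Palb2, which bridges the products of Brca1 and Brca2, had only 4.47, 4.38 and 4.62 FPKM. Rad52, an annealing protein, had 23.3, 19.96 and 22.6 FPKM, and Rad54l, a motor that helps strand invasion, had 5.05, 5.83 and 5.56 FPKM. With the deposited length, Brca1, Brca2 and Rad52 were thus at 16.4 FPKM or above and Palb2 and Rad54l at 5.83 FPKM or below. With the longest isoform the gap narrowed, with Brca2 at 4.12 FPKM, Palb2 at 2.90 FPKM and Rad54l at 2.55 FPKM.

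The 3 genes of the Fanconi anaemia pathway had a median of 11.7 FPKM. Fanca, part of the complex that attaches ubiquitin, had 24.2, 23.5 and 24.1 FPKM. Its substrates, Fancd2 and Fanci, form a clamp on DNA and were lower and less even. Fancd2 had 10.6, 13.4 and 11.2 FPKM from 296, 362 and 311 fragments, with library 2 high. Fanci had 3.19, 3.06 and 4.48 FPKM from 99, 92 and 138 fragments, with library 3 high. Neither spread passed the test against counting error given below, and Fancd2 was above Fanci in each library.

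Base excision and single-strand break repair had a median of 19.3 FPKM over 9 genes. Glycosylases cut out damaged bases and open the pathway, and those among the 46 genes were at or below 13.9 FPKM in every library. Tdg, a glycosylase outside the 46, was higher with 26.0, 24.3 and 24.2 FPKM, though at 8.71 FPKM with the longest isoform. Ung, which removes uracil, had 12.1, 11.7 and 11.4 FPKM. Ogg1, which removes oxidised guanine, had 13.7, 13.9 and 13.1 FPKM. Mutyh, which removes adenine paired with oxidised guanine, was the third lowest of the 46 genes with 3.36, 3.47 and 2.78 FPKM, and its 175 fragments in all were the fewest behind any of them.

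The later steps of base excision had mostly higher transcripts than Ung, Ogg1 and Mutyh. Apex1, the endonuclease that nicks the abasic site, had 16.6, 20.99 and 20.4 FPKM, with library 1 low. However, 61.7% of its exonic bases also lie in exons of Pip4p1 on the opposite strand, whose own level was 50.7 ± 0.765 FPKM (SD, n = 3). Polb, the gap-filling polymerase, had 8.98, 10.1 and 9.91 FPKM. Xrcc1, the scaffold, had 35.0, 37.2 and 34.1 FPKM, and Lig3, the ligase that it holds, had 21.3, 21.2 and 21.7 FPKM. Parp1, the sensor that coats nicked DNA with poly(ADP-ribose), was the third most abundant of the 46 genes with 108.6, 112.9 and 108.8 FPKM. Its relative Parp2 had 31.3, 29.5 and 30.2 FPKM.

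In mismatch repair, the 4 genes had a median of 16.2 FPKM. Msh6 takes part in reading single mismatches and Msh3 in reading loops. Msh6 had 49.5, 47.7 and 45.99 FPKM, the fourth highest mean of all 46 genes, while Msh3 had 9.46, 9.60 and 10.3 FPKM. Pms2, the endonuclease of the following step, had 6.605, 7.14 and 7.87 FPKM. Exo1, which removes the faulty strand, had 23.1, 22.7 and 21.97 FPKM with the deposited length.

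Nucleotide excision repair held both the highest gene and many low ones, with a median of 14.2 FPKM over 10 genes and 58.4% of the summed FPKM of all 46. Damage in chromatin is found by the products of Ddb1 and Ddb2. Ddb1 (chr19:10605327-10629819, plus strand, GRCm38) had 777.0, 793.3 and 781.1 FPKM from 13818, 13654 and 13779 fragments, above 99.3% of genes with at least 1 FPKM. Its product is also the adaptor of a large family of ubiquitin ligases with roles outside repair. Ddb2, its partner on ultraviolet lesions, had 6.73, 6.995 and 6.005 FPKM. Xpc, the other damage finder, had 10.9, 11.9 and 13.0 FPKM. Xpa, which checks the lesion, had 9.82, 7.65 and 7.11 FPKM from 110, 83 and 79 fragments, with library 1 high.

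The enzymes that open and cut the DNA around a bulky lesion were mostly between 7 and 25 FPKM. Ercc3 and Ercc2 are the helicases of the transcription factor TFIIH. Ercc3 had 15.9, 16.6 and 16.7 FPKM and Ercc2 had 7.43, 7.82 and 8.27 FPKM. On either side of the lesion cut Ercc5, with 22.8, 22.3 and 24.4 FPKM, and the pair Ercc1 and Ercc4. Ercc4, the nuclease of the pair, had 11.5, 12.2 and 12.5 FPKM, while Ercc1, its partner without catalytic activity, had 149.5, 151.9 and 149.1 FPKM. Ercc6, which couples repair to stalled transcription, had 17.3, 17.7 and 17.7 FPKM.

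Direct reversal was represented by Mgmt, which takes alkyl groups off guanine and is used up in the reaction. Mgmt (chr7:136894614-137130266, plus strand) was the lowest of the 46 genes with 2.85, 2.55 and 1.96 FPKM from 119, 103 and 81 fragments. Methylation of CpG in the promoter of the human gene is a known way in which it is silenced in human tumours. Methylation was not measured here, and any part of it in the level of Mgmt was not tested. The 250 bases before its first RefSeq start (chr7:136894336-136894585, plus strand, 67.2% GC) hold 15 CpG. Those before a second RefSeq start of Mgmt have 51.6% GC and 2 CpG. Those before the start of Ddb1, the highest gene, have 67.2% GC and 19 CpG. The 15 CpG of the first Mgmt stretch are in capitals below because they are the positions that such methylation would mark.
Mgmt: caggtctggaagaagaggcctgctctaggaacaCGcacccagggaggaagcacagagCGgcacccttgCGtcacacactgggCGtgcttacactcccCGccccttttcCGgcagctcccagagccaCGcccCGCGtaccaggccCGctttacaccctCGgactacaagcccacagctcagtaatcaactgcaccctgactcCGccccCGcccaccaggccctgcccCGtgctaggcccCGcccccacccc

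The proteins of many of these genes work in fixed partnerships, so the transcripts of 16 pairs were compared as log2 ratios within each library. In 16 of 16 pairs, the upper gene was on the same side of its partner in all 3 libraries. Each mean ratio was more than 2 SD from 0. The libraries share 1 condition and the same gene lengths, so this agreement describes the libraries and says little about the pairs. The share over other pairs of genes was not computed. Each pair had p = 0.25 in an exact permutation test that flips the sign of the ratios (two-sided), and 3 libraries allow none smaller, so no pair could pass a threshold of 0.05. In 10 pairs the ratio was beyond 1 on the log2 scale.

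The largest ratio was that of Ddb1 over Ddb2, 6.90 ± 0.11 on the log2 scale (SD, n = 3), or 119-fold. Ercc1 over Ercc4 followed with 3.64 ± 0.06, or 12.4-fold. Msh6 exceeded Msh3 by 2.29 ± 0.12, or 4.88-fold. Parp1 exceeded Parp2 by 1.86 ± 0.07, or 3.63-fold. With the deposited length, the subunits or relatives in these pairs were thus far from equal in transcript abundance. With the longest APPRIS principal isoform the 4 ratios were 27.4-, 9.96-, 3.90- and 1.73-fold, in the same order. Fancd2 over Fanci was 1.73 ± 0.40, the widest spread of any pair, with 3.32-, 4.37- and 2.50-fold in libraries 1, 2 and 3. Palb2 lay under Brca2 by 3.83-fold, at -1.94 ± 0.06, but by 1.42-fold, at -0.50, with the longest isoform. Ercc2 lay under Ercc3 at -1.07 ± 0.05.

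The other pairs ranged from nearly equal to about as unequal as Ercc2 and Ercc3. Brca1 over Brca2 had the smallest ratio, 0.18 ± 0.03, or 1.14-fold. Chek1 over Chek2 was 0.56 ± 0.05, and Atr over Atm was 0.86 ± 0.08. Rad50 over Mre11a was 0.58 ± 0.02, whereas Nbn over Mre11a was -1.18 ± 0.14. Lig3 over Xrcc1 was -0.73 ± 0.08. In end joining, Xrcc6 over Xrcc5 was 1.18 ± 0.14, Xrcc4 over Lig4 was 0.88 ± 0.09 and Prkdc over Xrcc5 was -1.15 ± 0.11.

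The ratios rest on the gene lengths by which the fragments were divided. The deposited values had been divided by the mean length of all annotated isoforms of a gene, short fragments of transcripts included. For the 46 genes, the longest isoform was a median of 2.21 times the length used, against 1.73 times for all genes with at least 1 FPKM. After division by the longest isoform, the median over the 46 genes was 6.82 FPKM against 10.2 FPKM over genes with at least 1 FPKM, and 13 of the 46 lay above the latter. Ddb1 moved from 783.8 to 216.7 FPKM and remained the highest, and Ercc1 moved from 150.2 to 81.8 FPKM. Parp1 moved from 110.1 to 27.9 FPKM. Exo1, with a length of 1346 bases used and a longest isoform of 7796 bases, moved most, from 22.6 to 3.90 FPKM, and from rank 14 to rank 37. Xrcc5 and Mgmt have 1 annotated isoform each and hardly moved, so that Fanci, at 1.66 FPKM, became the lowest.

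**Figure D2:**
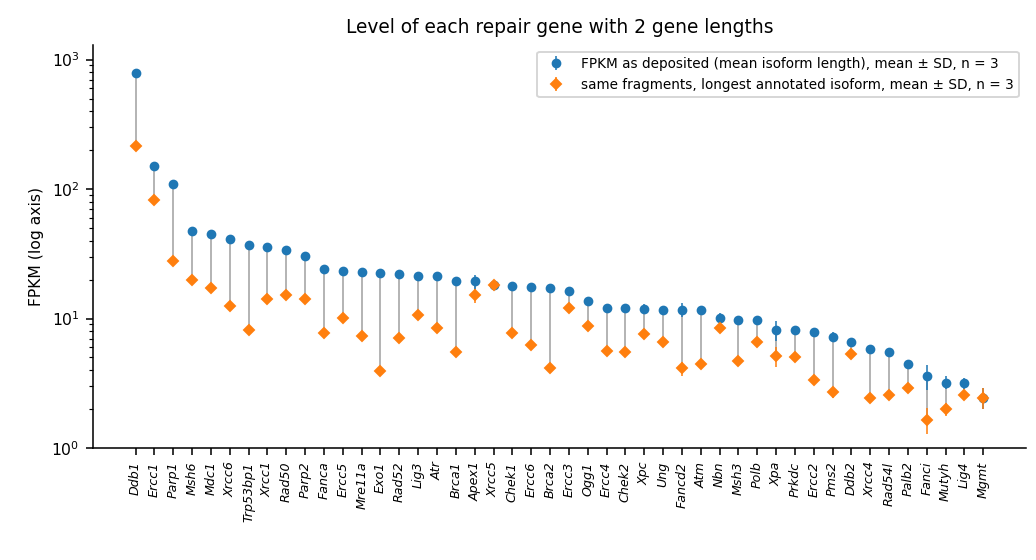
Mean FPKM of the 46 repair genes (y axis, log scale) as deposited (circles) and after the same fragments were divided by the longest annotated isoform (diamonds), with bars for the SD of 3 libraries and genes ordered by deposited level (x axis). All genes with more than 1 isoform sit lower by the longest isoform, with the widest drop for Exo1, from 22.6 to 3.90 FPKM.

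With the longest isoform, 13 of the 16 ratios kept their sign. Xrcc6 over Xrcc5 turned from 1.18 to -0.53, Nbn over Mre11a turned from -1.18 to 0.22, and Xrcc4 over Lig4 turned from 0.88 to -0.07. Which subunit of Ku was more abundant therefore could not be told from these values. The order of Ddb1 over Ddb2 was kept at 5.34, that of Ercc1 over Ercc4 at 3.88, that of Msh6 over Msh3 at 2.07 and that of Parp1 over Parp2 at 0.99. Ercc2 over Ercc3 and Prkdc over Xrcc5 moved further from 0, to -1.86 and -1.84. Across the deposited length, the longest isoform, the longest principal isoform and the union of exons, 11 of 16 pairs had the same sign throughout. The other 5 were these 3 pairs, Lig3 over Xrcc1 and Atr over Atm, which turned only with the union of exons.

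**Figure D3:**
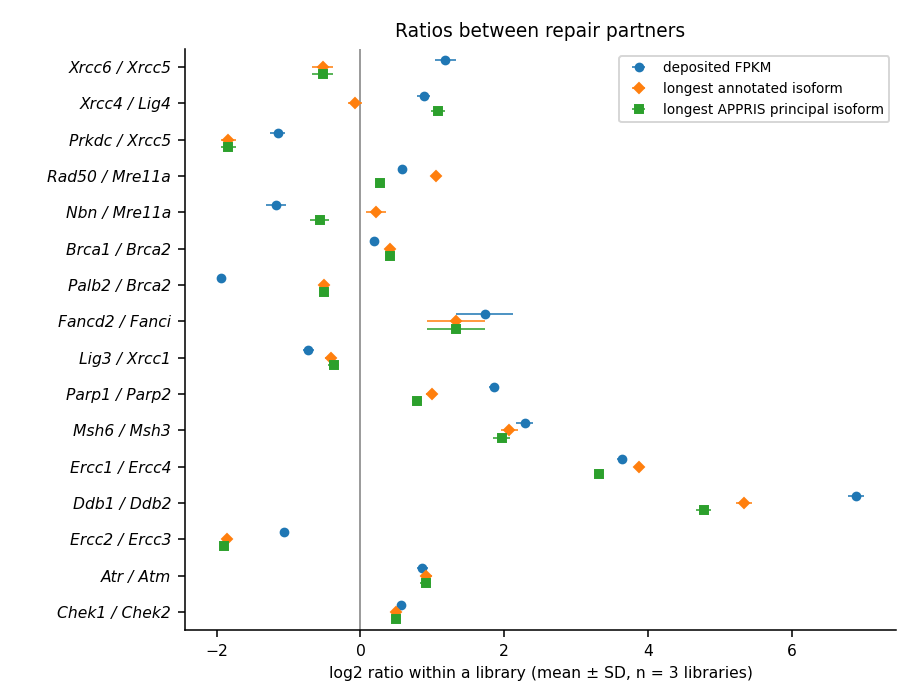
Log2 ratio of FPKM within a library for 16 pairs of repair partners (mean of 3 libraries, bars are the SD), with the deposited length (circles), the longest annotated isoform (diamonds) and the longest APPRIS principal isoform (squares), and a line at 0 for equal levels. Ddb1/Ddb2 and Ercc1/Ercc4 stay far to the right under each length, while Xrcc6/Xrcc5 crosses 0.

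Exonic bases can also be shared with other genes. Exons of another gene covered some exonic bases of 24 of the 46 genes and over 10% of those bases in 9. Beside Apex1, these were Ercc2 (42.7%), Lig3 (25.1%, with Rffl), Ddb2 (23.8%, with Acp2), Fanci (15.95%, with Polg), Rad54l (15.4%, with Lrrc41), Trp53bp1 (15.04%, with Tubgcp4), Ogg1 (10.6%, with Camk1) and Fanca (10.5%, with Zfp276). Whether the counting used the strand is not given in the sources used here, and without strand the reads of a gene and an opposite partner cannot be told apart. How reads in such overlaps were treated, counted or left out, is not given either. The values of these 9 genes are uncertain to that extent, and whether the overlap raised or lowered them was not tested. Of the members with values above 100 FPKM, Ddb1 had 5.12%, Ercc1 3.41% and Parp1 0.132% of exonic bases in other genes.

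The spread between libraries was set beside counting error. The coefficient of variation had a median of 4.62% over the 46 genes, beside a median of 4.80% expected from counting error, and it exceeded the counting value in 22 genes. An SD of 3 libraries lies below the SD it estimates more often than above it. These medians therefore do not show that counting alone accounts for the spread. The largest spreads were those of Fanci (21.95%), Mgmt (18.6%) and Xpa (17.5%), all with 329 fragments or fewer in all. The smallest were those of Rad50 (0.327%), Trp53bp1 (0.958%) and Ercc1 (0.995%), each with 3344 fragments or more. Thus the genes with the least even values were among those with the fewest fragments.

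Fragment numbers were compared with the library totals by a chi-square test with Benjamini-Hochberg adjustment over 15223 genes. It called 0 of the 46 repair genes at an adjusted p under 0.05, against 1.85% of all genes tested. Without adjustment, 6 of the 46 (13.0%) had p under 0.05, against 9.13% of all genes tested. Counting error alone would give about 5%. These were Fanci, Fancd2, Apex1, Xpc, Mgmt and Prkdc. Their Benjamini-Hochberg adjusted p ranged from 0.187 for Fanci and 0.217 for Fancd2 to 0.477 for Prkdc. After adjustment, the depth of these libraries thus resolved no difference between them for any of the 46 genes.

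**Figure D4:**
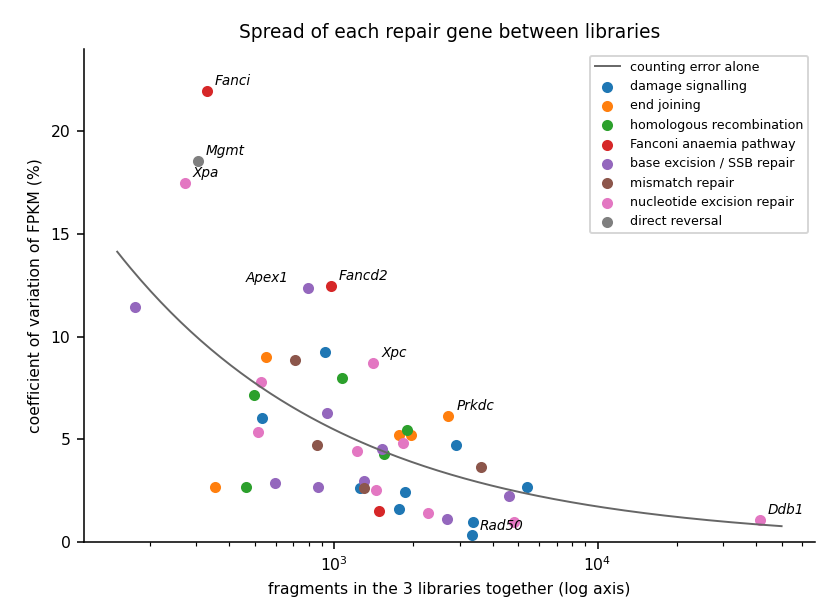
Coefficient of variation of FPKM over 3 libraries (y axis, percent) against the fragments of each of the 46 repair genes in the 3 libraries together (x axis, log scale), coloured by pathway, with a curve for the value that counting error alone gives. Points lie on both sides of the curve, 22 above it, and Fanci, Mgmt and Xpa are the highest. With counting error alone, an SD of 3 libraries would lie below the curve more often than above it.

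A further 84 genes of the same pathways and of translesion synthesis were listed for comparison. Of these, 83 were found in the table, the name of the other having been misspelt in the list. The 83 had a median of 11.4 FPKM, and 80 of them had at least 1 FPKM. In damage signalling, 13 of 13 reached 1 FPKM with a median of 16.3 FPKM, from Rnf8, a ubiquitin ligase at breaks, at 3.39 FPKM to Topbp1, the activator of Atr, at 133.3 FPKM. Topbp1 was thus above every kinase and adaptor of the 9 signalling genes. In end joining 6 of 6 reached it, from Nhej1 at 2.22 FPKM to the polymerase Polm at 48.8 FPKM. In homologous recombination 14 of 14 did, from Rad51b at 3.05 FPKM to Rpa1, which coats single-stranded DNA, at 51.4 FPKM. With the longest isoform Rpa3, at 34.5 FPKM, was above Rpa1, at 22.4 FPKM. In the Fanconi anaemia pathway 10 of 10 did, with the deposited length from Fancb at 2.35 FPKM to the nuclease scaffold Slx4 at 19.9 FPKM. Fanca was above all 10 of them with the deposited length. With the longest isoform it had 7.72 FPKM, below Slx4 at 9.43 FPKM and Fance at 9.80 FPKM.

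The 3 genes below 1 FPKM belonged to base excision and mismatch repair. In base excision, 12 of 14 reached 1 FPKM, with the replicative ligase Lig1 highest at 39.4 FPKM. The glycosylase Neil2 had 0.312 FPKM from 13, 5 and 4 fragments. Fen1, the flap nuclease, had 0.302 FPKM from 11, 7 and 11 fragments, and 84.2% of its exonic bases lie in exons of Gm10143 and Tmem258 on the opposite strand. The part of this overlap in the low Fen1 value was not tested. In mismatch repair, 3 of 4 reached 1 FPKM, with Msh5 highest at 5.92 FPKM, and Msh4, a meiotic relative, had 0, 2 and 0 fragments. In nucleotide excision repair, 13 of 13 did, with the deposited length from Cetn2 at 6.02 FPKM to Rad23b, a partner of Xpc, at 271.3 FPKM. For direct reversal, Alkbh3 had 34.4 FPKM, above Mgmt. Alkbh2 had 2.65 ± 0.614 FPKM (SD, n = 3), within its spread of Mgmt, and 1.94 FPKM with the longest isoform, below Mgmt. Of the exonic bases of Alkbh2, 29.5% lie in exons of Usp30 on the opposite strand.

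**Figure D5:**
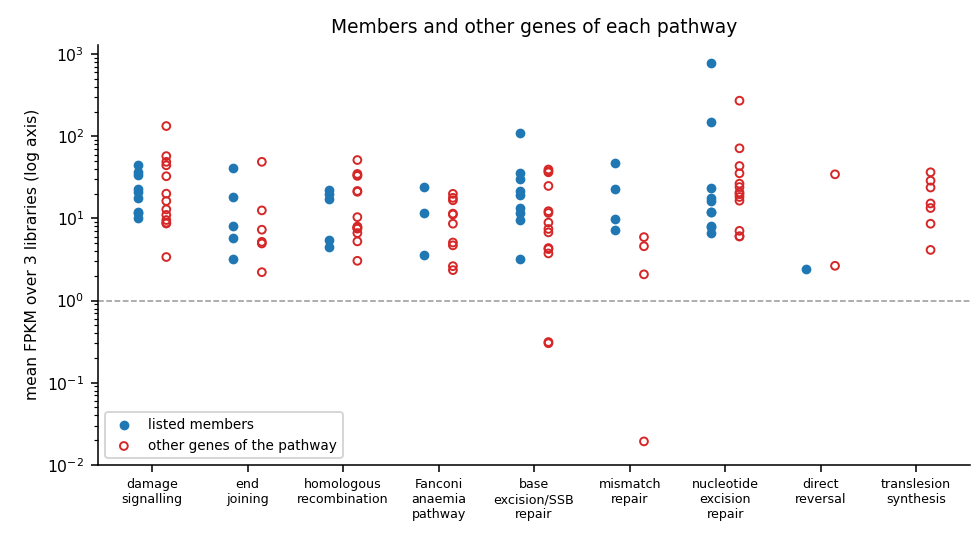
Mean FPKM over 3 libraries (y axis, log scale) of the 46 repair genes (filled circles) and of 83 other genes (open circles), by pathway (x axis), with a dashed line at 1 FPKM. Only Neil2, Fen1 and Msh4 lie under the line, and in nucleotide excision repair Rad23b, at 271.3 FPKM, lies between Ddb1 and Ercc1.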

How the data were processed

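UMI-RNAseq was analysed in 3 NIH3T3 libraries. Per the labels and methods, reads were tagged with UMI-tools 1.0.0, mapped with HISAT2 2.0.4, stripped of duplicates and counted with HTSeq 0.6.1, and DESeq 1.10.1 is also named in the submitters' processing notes. The authors deposited FPKM values, 1 column per library, in tables with identical values. The counting annotation is not given in the sources used here. The steps of the FPKM values matched whole fragments (tolerance 0.01) with the mean isoform length of GENCODE M21 for 99.2% of genes with fragments and for 45 of the 46 members. For Xrcc5 the nearest length was used. Totals came from genes with 1 isoform.

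Ratios within a library were tested with an exact sign-flip permutation test. Recovered fragments were tested against library totals (chi-square, 2 degrees of freedom, at least 5 expected per library, Benjamini-Hochberg over all genes), after a test on simulated data. Python 3.11.15, numpy 2.4.6, pandas 2.3.3, scipy 1.17.1 and matplotlib 3.10.9 were used. Shared sequence was measured in 75-nt words. All 46 members are named, with the highest and lowest other gene of each pathway, some further other genes, and overlapping genes. The members and lists were chosen with earlier results of these data known. Proteins were not analysed here. Alternatives covered scaling, lengths, limits, pseudocounts, filters and left-out libraries.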

Additional observations from a re-analysis of the deposited data

How the results depend on the processing

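The 46 genes all kept at least 1 FPKM without any 1 of the 3 libraries, and 0 passed the chi-square test under each alternative tried, with 3 to 6 at an unadjusted p under 0.05. In all, 292 alternative values were computed. The median level of the 46 genes was 24.4 as TPM, 6.82 with the longest isoform and 16.1 as a geometric mean with a pseudocount of 0.1. With lengths added after seeing the data, it was 8.21 FPKM with the longest APPRIS principal isoform and 4.44 FPKM with the union of exons. Of the log2 ratios, Xrcc6 over Xrcc5 reversed to -0.53 with the longest and with the principal isoform, to -0.97 with the union of exons and to -0.16 for fragments not divided by length. Xrcc4 over Lig4 became -0.075 with the longest isoform, -0.33 with the union and -0.63 without division. Nbn over Mre11a became 0.22 with the longest isoform and 0.28 with the union, Lig3 over Xrcc1 0.50 with the union and 0.82 without division, and Atr over Atm -0.55 with the union. Without division by length, Prkdc over Xrcc5 became 0.47 and Brca1 over Brca2 -0.29. By construction these shifts come from the length alone. Leaving out 1 library reversed 0 ratios. Below about 330 fragments, as for Fanci, Mgmt, Xpa and Mutyh, counting error limits what can be seen. Libraries could not be paired across conditions because all share 1 condition.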

Other observations

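Translesion synthesis, in which special polymerases copy past damage that was not repaired, is a neighbouring pathway with no gene among the 46. All 7 of its listed genes had at least 1 FPKM, with a median of 15.2 FPKM. Rad18, the ubiquitin ligase that marks the sliding clamp and calls these polymerases, was highest with 35.2, 35.6 and 38.6 FPKM. Among the polymerases, Rev1 had 28.7, 29.8 and 27.9 FPKM and Polk had 23.7, 24.1 and 23.5 FPKM. Polh, which copies past ultraviolet lesions, had 8.27, 9.02 and 8.54 FPKM, and Poli was lowest with 4.19, 3.99 and 4.22 FPKM. Rev3l, the catalytic subunit of polymerase zeta, had 13.4, 13.9 and 12.9 FPKM, and its partner Mad2l2 had 14.3, 15.05 and 16.3 FPKM. The order Rad18, Rev1, Polk, then Polh and Poli was the same in every library with the deposited length, but with the longest isoform Polk, at 11.2 FPKM, was above Rev1, at 7.99 FPKM. For Rev1, 26.6% of exonic bases lie in exons of Eif5b on the opposite strand.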
